A study of Mus musculus with 6 samples.

Results

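The AP-1 transcription factor family was described in macrophages grown from mouse bone marrow (BMMs), from mice without Bub1 in myeloid cells (Bub1 cKO, 3 libraries) and from control mice (Ctrl, 3 libraries). The 10 members are Fos, Fosb, Fosl1, Fosl2, Jun, Junb, Jund, Jdp2, Batf3 and Atf3, found by gene symbol among the 15982 genes of 1 table, with each symbol present once. Cells of both genotypes spent 3 days in M-CSF (20 ng/ml) and 2 further days in the same M-CSF plus 50 ng/ml of RANKL, which turns macrophage precursors into osteoclasts. The labels name myeloid cells as the site of the deletion, and the sources used here do not name the driver of the recombinase, the alleles of the Ctrl mice or the age and strain of the animals. Nothing in the labels says whether the 3 libraries of a genotype came from separate animals or cultures, so p-values cover only library-to-library spread, possibly technical. The 10 genes were chosen by family name with the deposited log2 changes and p-values of this same contrast known, those of Jdp2 and Fosl2 above all, so their values are a description and no independent test of the family was made here.

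AP-1 is not 1 protein but a set of dimers. Fos and Jun proteins pair through a leucine zipper and bind a short DNA element; Jun proteins can also pair with themselves, whereas Fos proteins need a partner. Jdp2, Atf3 and Batf3 carry the same kind of zipper, pair with Jun proteins and often act as repressors. In mice c-Fos, the product of Fos, is required for osteoclast formation and acts upstream of Nfatc1, the master transcription factor of osteoclasts, and Jdp2 is needed for osteoclast formation as well.

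Each gene has 1 value per genotype, given below in TPM as deposited, without values per library. The authors' deposited table also gives a log2 change, which is log2 of the ratio of the group values after adding 1 to each, and a test statistic, standard error and p-value. The product of statistic and standard error is called the test's own log2 change, and its 95% interval was taken from the normal distribution with that standard error. A gene is called changed at an adjusted p under 0.05 in the authors' deposited table.

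The DNA around an annotated start of the 2 genes called and of their closest relations is shown first, since its letters show which AP-1-like elements lie there. Elements farther from these starts were not searched for. Windows of 300 bases, 250 before and 50 after an annotated start, were available for 9 of the 10 members (RefSeq, GRCm38.p6), and Jdp2 has 3 of them. Capitals mark the motifs found: TGACGT, the half-site of the cAMP response element that ATF, CREB and Jun proteins bind, TGACATCA, the AP-1-like element of the Jun promoter, and TATAAA, the TATA box. The Jdp2 window is the only 1 of its 3 with a match. The Fosl2 window has none. In Fos and Jun the RefSeq start used is the GENCODE start of the gene, whereas it lies 389 bases downstream of it in this Jdp2 window, 671 bases downstream in Fosl2 and 34.7 kb downstream in Atf3, so these windows lie inside the genes as GENCODE draws them. In Jund it lies at -1210 bases, upstream of the GENCODE start. Fos is shown because it lies next to Jdp2 on chromosome 12, and Jun and Atf3 are shown as stretches of 60 bases around their match.
Jdp2, chr12:85599166-85599465 (plus strand): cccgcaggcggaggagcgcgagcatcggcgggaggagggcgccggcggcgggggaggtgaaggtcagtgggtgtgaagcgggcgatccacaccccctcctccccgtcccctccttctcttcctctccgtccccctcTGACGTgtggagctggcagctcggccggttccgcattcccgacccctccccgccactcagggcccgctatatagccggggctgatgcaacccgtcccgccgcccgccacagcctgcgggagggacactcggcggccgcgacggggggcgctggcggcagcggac
Fosl2, chr5:32136222-32136521 (plus strand): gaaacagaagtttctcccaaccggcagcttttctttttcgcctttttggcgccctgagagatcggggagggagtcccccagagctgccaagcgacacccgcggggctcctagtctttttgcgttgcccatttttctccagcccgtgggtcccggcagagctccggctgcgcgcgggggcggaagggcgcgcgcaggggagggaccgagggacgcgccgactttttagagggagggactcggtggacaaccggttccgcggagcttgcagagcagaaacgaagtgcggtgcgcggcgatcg
Fos, chr12:85473640-85473939 (plus strand): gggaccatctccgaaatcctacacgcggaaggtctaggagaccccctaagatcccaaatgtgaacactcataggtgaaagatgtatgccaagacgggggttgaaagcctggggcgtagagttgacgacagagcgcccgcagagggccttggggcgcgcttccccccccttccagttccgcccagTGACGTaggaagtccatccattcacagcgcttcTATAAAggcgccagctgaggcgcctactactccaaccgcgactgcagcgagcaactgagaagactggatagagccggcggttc
Jun, chr4:95052235-95052294 (minus strand): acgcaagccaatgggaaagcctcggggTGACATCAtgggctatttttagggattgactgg
Atf3, chr1:191183309-191183368 (minus strand): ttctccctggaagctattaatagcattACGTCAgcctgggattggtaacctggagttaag

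In Jdp2 the half-site lies at bases -114 to -109 from the annotated start, in Fos at -66 to -61 and in Atf3, on the opposite strand, at -8 to -3. The Jun element lies at -45 to -38. The half-site was found in 3 of the 11 windows of members and in 7.51% of all 32851 windows, and the Jun-type element in 1 of 11 and 3.62%. TATAAA was found at -33 to -28 in Fos and at 1 to 6 in Junb, and in 13.6% of all windows. The Junb positions count from a RefSeq start that lies at -30 bases, upstream of the GENCODE start. The full AP-1 element TGACTCA, present in 5.20% of all windows and the full cAMP response element TGACGTCA, in 1.79%, were found in 0 of the 11 windows. Both strands were searched, and every full response element also counts as a half-site. G and C made up 74.3% of the Jdp2 window shown, 58.7% of the Fos, 64.7% of the Atf3 and 46.7% of the Jund window. The median over all windows was 52.7%, so the shares are not matched in base content. These are matches of letters within 300 bases, and binding was not measured.

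Of the 10 members, 2 were called changed, Jdp2 and Fosl2, both higher in Bub1 cKO, where 0.181% of all genes were called in either direction and 0.113% called higher. At an unadjusted p under 0.05 there were 3 members, all higher, beside 4.81% of all genes in either direction, 2.35% higher and 2.46% lower. Since the members were taken up with this contrast known, nothing is read from these shares. The statistic was positive in 5 members and negative in 5. The median log2 change over the 10 members was 0.10, beside -0.01 over all genes. Members averaging at least 1 TPM numbered 7, and none of these reached that mean through 1 genotype alone.

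**Figure D1:**
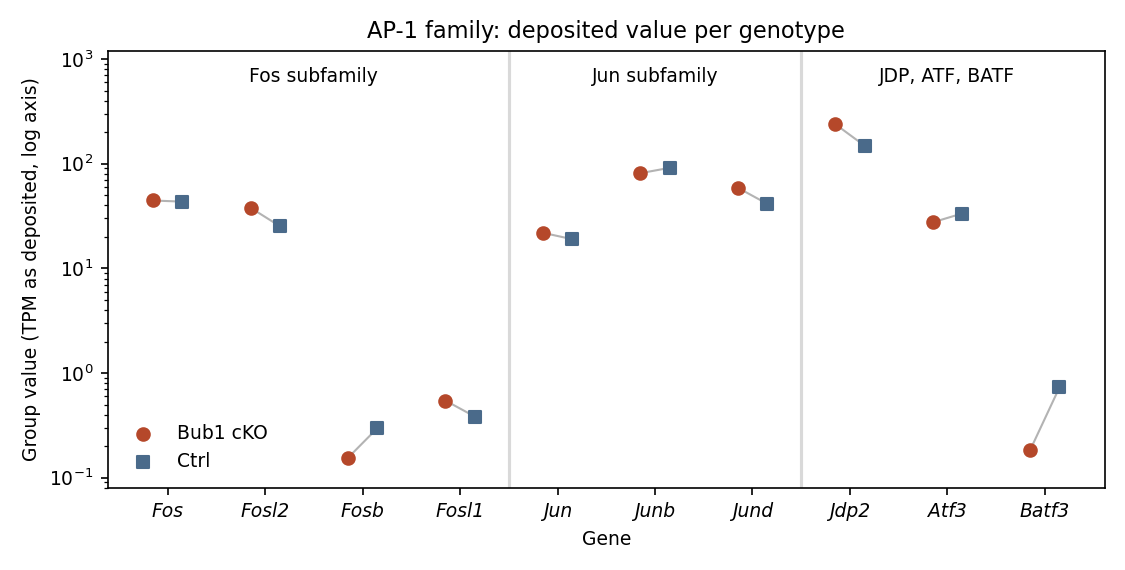
Deposited value of each AP-1 gene in Bub1 cKO (circles) and Ctrl (squares), in TPM on a log axis, 1 value per genotype without replicate error. Jdp2 stands highest in both genotypes, at 239 and 149 TPM, and Fosb, Fosl1 and Batf3 lie below 1 TPM in both.

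Within the family, Jdp2 had the highest level and the largest positive log2 change. Jdp2 (ENSMUSG00000034271.16, chromosome 12, 85599027 to 85639878, plus strand) had 239 TPM in Bub1 cKO and 149 TPM in Ctrl in the authors' deposited table, where its log2 change was 0.68, its standard error 0.15 and its adjusted p 0.007. The test's own log2 change was 0.69, with a 95% interval from 0.39 to 0.99, or a fold from 1.31 to 1.99. Jdp2 ranked 12th of all genes by p-value in the authors' deposited table, and its mean exceeded that of 96.2% of the genes.

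Atf3, a close relative of Jdp2 and a gene induced by stress, was lower in Bub1 cKO by value and was not called. Atf3 (ENSMUSG00000026628.13, chromosome 1, 191170296 to 191218039, minus strand) had 27.5 TPM in Bub1 cKO and 33.4 TPM in Ctrl in the authors' deposited table, where its log2 change was -0.27 and its adjusted p 0.985. By the test's own log2 change it was at -0.65, and the interval from -1.81 to 0.51 includes falls and rises. The standard error of Atf3, 0.59 in the authors' deposited table, was larger than that of 92.5% of the 200 genes nearest to it in mean level, whose median is 0.30.

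Batf3, a factor needed for type 1 conventional dendritic cells, was close to the lower end of the table. Batf3 (ENSMUSG00000026630.9, chromosome 1, 191097847 to 191108945, plus strand) had 0.184 TPM in Bub1 cKO and 0.728 TPM in Ctrl in the authors' deposited table, with a standard error of 3.92. The 95% interval of its test's own log2 change, from -9.23 to 6.12, gives no direction. Of 6 markers of type 1 conventional dendritic cells 5 were in the table, and they summed to 2.02 TPM in Bub1 cKO and 3.31 TPM in Ctrl.

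Among the Fos genes, Fosl2 rose and Fos did not pass. Fosl2, whose product Fra-2 limits osteoclast size in mice, is ENSMUSG00000029135.10 (chromosome 5, 32135801 to 32157842, plus strand). It had 37.9 TPM in Bub1 cKO and 25.3 TPM in Ctrl in the authors' deposited table, where its log2 change was 0.56, its standard error 0.14 and its adjusted p 0.022. The test's own log2 change was 0.58, with a 95% interval from 0.31 to 0.84, or a fold from 1.24 to 1.79. None of the 200 genes nearest to Fosl2 in mean had a smaller standard error, and their median is 0.31.

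Fos (ENSMUSG00000021250.13, chromosome 12, 85473890 to 85477273, plus strand) had 44.5 TPM in Bub1 cKO and 43.4 TPM in Ctrl in the authors' deposited table, where its log2 change was 0.04. Its adjusted p was 1 in the authors' deposited table, and the test itself put its log2 change at -0.01. The 95% interval ran from -0.60 to 0.57, or a fold from 0.66 to 1.49, so a change within these bounds could have been missed. This interval overlaps that of Fosl2, and a difference between the 2 genes was not tested.

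Fosb and Fosl1, the other two Fos genes, were hardly present. Fosb (ENSMUSG00000003545.3, chromosome 7, 19302696 to 19310051, minus strand) had 0.155 TPM in Bub1 cKO and 0.297 TPM in Ctrl in the authors' deposited table. Fosl1, which encodes Fra-1 and can stand in for c-Fos in mouse osteoclast formation, is ENSMUSG00000024912.5 in the table (chromosome 19, 5447547 to 5455946, plus strand). It had 0.545 TPM in Bub1 cKO and 0.384 TPM in Ctrl in the authors' deposited table. Their standard errors of 2.55 and 2.16 in the authors' deposited table leave both directions possible.

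The Jun genes were all present, and none was called. Jund, the Jun protein linked to restraint of growth, was the highest of them by log2 change. Jund (ENSMUSG00000071076.6, chromosome 8, 70698949 to 70700616, plus strand) had 58.9 TPM in Bub1 cKO and 41.4 TPM in Ctrl in the authors' deposited table, where its log2 change was 0.50, its standard error 0.22, its unadjusted p 0.015 and its adjusted p 0.805. Its interval, from 0.10 to 0.95, holds the values of both Jdp2 and Fosl2. The log2 change of Jund thus lies near that of Fosl2, and its standard error in the authors' deposited table is larger, 0.22 beside 0.14.

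Junb (ENSMUSG00000052837.6, chromosome 8, 84974484 to 84978718, minus strand) had 81.2 TPM in Bub1 cKO and 91.3 TPM in Ctrl in the authors' deposited table, where its log2 change was -0.17 and its standard error 0.18. The 3′ end of Junb overlaps the 3′ end of Prdx2, a peroxiredoxin gene on the other strand, by 351 bases in GENCODE vM21. Prdx2 had 278 TPM in Bub1 cKO and 306 TPM in Ctrl in the authors' deposited table. The sources used here do not say whether reads were counted by strand, so the share of Junb that may come from Prdx2 is uncertain.

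Jun (ENSMUSG00000052684.4, chromosome 4, 95049034 to 95052222, minus strand), which encodes c-Jun, had 21.9 TPM in Bub1 cKO and 19.0 TPM in Ctrl in the authors' deposited table, where its log2 change was 0.19 and its standard error 0.23. Its 95% interval, from -0.25 to 0.66, includes 0. Jun, Jund, Jdp2, Fosl1 and Atf3 also overlap a gene on the other strand, in each case 1 that was not analysed here.

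**Figure D2:**
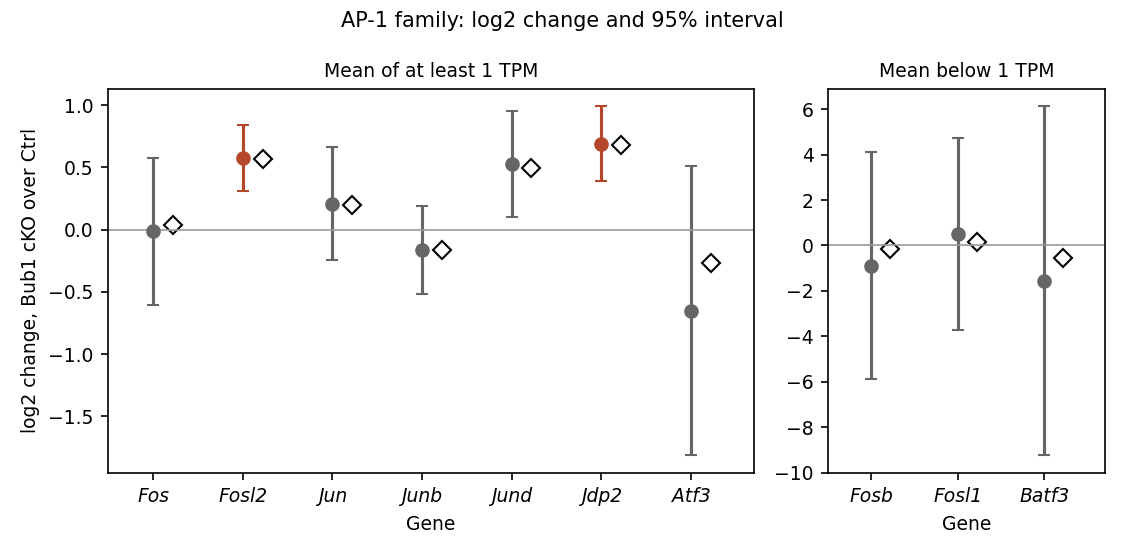
The test's own log2 change of each AP-1 gene, Bub1 cKO over Ctrl, with its 95% interval (filled circles, red at an adjusted p under 0.05), and the deposited log2 change (open diamonds). Jdp2 and Fosl2 have intervals from 0.39 to 0.99 and from 0.31 to 0.84, and the intervals of the 3 genes below 1 TPM, on an axis of their own, span several log2 units on both sides of 0.

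The precision of these values follows the level of the gene, with exceptions. Over the 2781 genes between 20 and 200 TPM the median standard error was 0.29, and over genes below 1 TPM it was 3.43. Fos, at 0.30, lay in the middle of its 200 nearest genes, of which 51% had a smaller standard error. For Junb, Jund, Jun and Jdp2 this share was 15.5%, 24.5%, 12.5% and 24%.

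**Figure D3:**
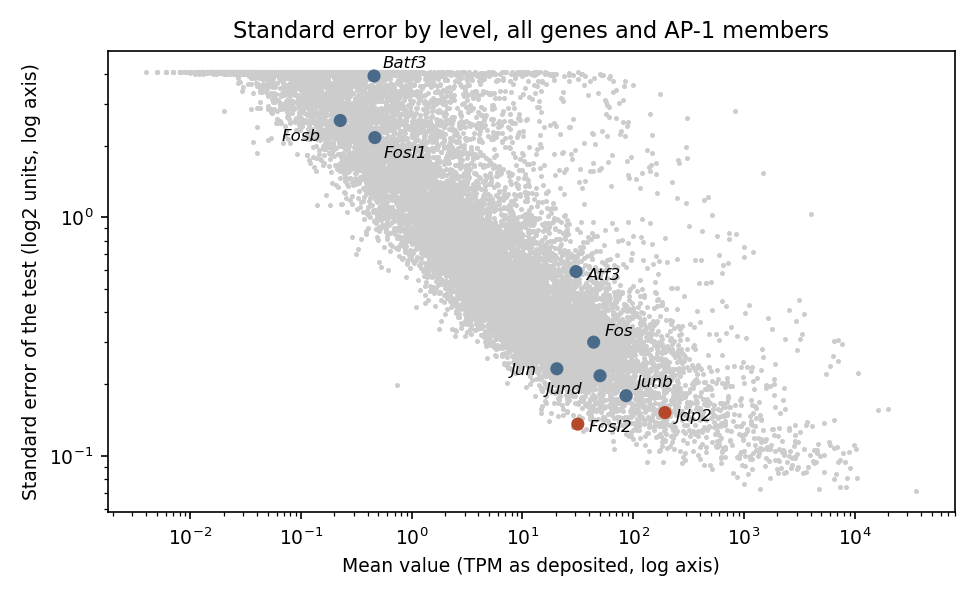
Standard error of the authors' test against mean level for all genes (grey) and the 10 AP-1 genes (red where called, blue where not), both on log axes. Fosl2, at 0.14, lies at the lower edge of the cloud for its level, and Atf3, at 0.59, near the upper edge.

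Jdp2 made up more of the family in Bub1 cKO than in Ctrl by summed TPM. The 10 members summed to 511 TPM in Bub1 cKO and 404 TPM in Ctrl, a difference of 108 TPM, of which Jdp2 alone gave 90.0 TPM. Its share was 46.7% of the sum in Bub1 cKO and 36.8% in Ctrl. The other 9 members summed to 273 TPM in Bub1 cKO and 255 TPM in Ctrl, a ratio of 1.07. The 4 Fos genes together had 83.1 TPM in Bub1 cKO and 69.4 TPM in Ctrl, and the 3 Jun genes 162 TPM in Bub1 cKO and 152 TPM in Ctrl. The Jun share was 31.7% in Bub1 cKO and 37.6% in Ctrl. These sums have no error, since single libraries were not analysed here.

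The order of the members by TPM was similar in the genotypes. In Bub1 cKO it ran Jdp2, Junb, Jund, Fos, Fosl2, Atf3 and Jun, and in Ctrl Jdp2, Junb, Fos, Jund, Atf3, Fosl2 and Jun. Neighbours in this order such as Fos and Jund lie close together, and no spread of a level was available to separate them. Jdp2 exceeded Junb, the next highest by TPM, 2.94-fold in Bub1 cKO and 1.63-fold in Ctrl. The ratio of Fosl2 to Fos in TPM was 0.85 in Bub1 cKO and 0.58 in Ctrl. Levels are per transcript length only if the deposited values are TPM proper, and in a 3′ tag library that division lowers long transcripts such as Fosl2, so the order is that of the deposited scale.

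Several members sit side by side in the genome, and their neighbours allow each value to be set in place. Fos starts 125 kb before Jdp2 on chromosome 12, and Batf, another dimer partner of Jun proteins, starts 87.6 kb after Jdp2. Batf had 0.183 TPM in Bub1 cKO and 2.02 TPM in Ctrl in the authors' deposited table, with a standard error of 2.38. Of the 6 table genes averaging at least 1 TPM that start within 250 kb of Jdp2, Fos and Batf included, 0 were called and 0 had an unadjusted p under 0.05. Fosl2 has no such neighbour within 250 kb. The neighbourhood was examined after the values were seen.

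**Figure D4:**
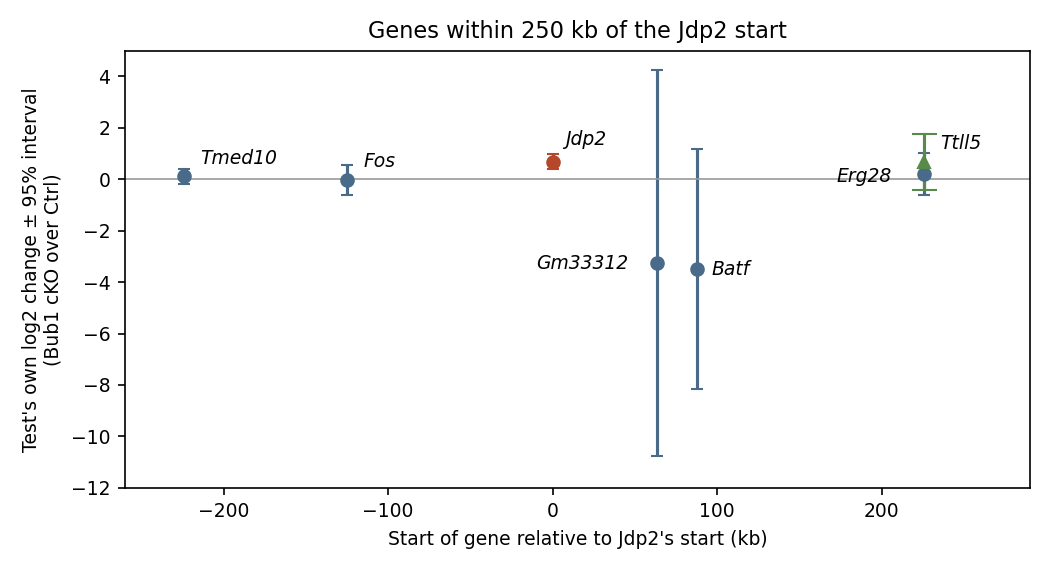
The test's own log2 change with its 95% interval for Jdp2 (red) and the 6 genes averaging at least 1 TPM that start within 250 kb of it, by distance from the Jdp2 start in kb, negative upstream; the triangle is Ttll5, which starts next to Erg28. The interval of Jdp2 lies above 0, and the intervals of the other 6 include 0.

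The 3′ untranslated regions of the members differ in the AU-rich pentamer ATTTA, a letter pattern found in short-lived transcripts such as that of Fos. In the longest coding transcript of each gene (GENCODE vM21), Fos had 4 pentamers in 815 bases, Jun 4 in 1233, Junb 2 in 485 and Atf3 3 in 1186. Jdp2 had 0 in 920 bases and Fosl2 8 in 4653, or 1.72 per kb. The median over 13961 genes was 1.34 per kb, and Fos had 4.91, Junb 4.12, Jun 3.24 and Atf3 2.53 per kb. The longer pattern TTATTTATT was present in Fos and Fosl2 and in 8.52% of all genes. The 2 genes called thus differ in this feature, and transcript stability was not measured.

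The next question was how the partners, the upstream signal and the targets of AP-1 stood. These 5 lists were drawn up with earlier results of these data known, so their counts are a description and nothing is read from them as a test. Beside them stand all genes, of which 49.9% had a positive statistic, 0.181% were called and 4.81% had an unadjusted p under 0.05. All genes include those below 1 TPM, whose median standard error was 3.43, so this background is not matched in level. Maff stands both among the partners and among the immediate-early genes.

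Other factors with this kind of zipper, listed as AP-1 relatives and partners, were not called. Whether each of them pairs with Fos or Jun proteins was not examined. Of 26 such genes 10 had positive and 16 negative statistics, 0 were called by the authors' test, and 0 had an unadjusted p under 0.05. The median log2 change was -0.05. The smallest p-values belonged to Bach1, a heme-regulated repressor, at 5.45 TPM in Bub1 cKO and 7.68 TPM in Ctrl in the authors' deposited table, and to Maf, a factor of macrophage maturation, at 14.4 TPM in Bub1 cKO and 26.4 TPM in Ctrl. Atf4, a factor of the amino acid and stress response, was at 137 TPM in Bub1 cKO and 116 TPM in Ctrl in the authors' deposited table.

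Kinases and factors upstream of AP-1 had statistics of both signs. Of 25 genes 11 had positive and 14 negative statistics, and 0 were called. An unadjusted p under 0.05 was found for 2 that were higher and 2 that were lower, or 16% of the 25, beside 4.81% of all genes. Their median log2 change was 0.11 and the median of the test's own -0.07, so the signs differ. Map2k3, a kinase that activates p38, was at 83.9 TPM in Bub1 cKO and 56.7 TPM in Ctrl in the authors' deposited table (adjusted p = 0.211). Map2k2, a kinase that activates ERK, was at 122 TPM in Bub1 cKO and 88.0 TPM in Ctrl in the authors' deposited table. Mapk3, which encodes the kinase ERK1, was at 34.8 TPM in Bub1 cKO and 77.7 TPM in Ctrl in the authors' deposited table, where its log2 change was -1.14 and its adjusted p 0.445, and the test's own log2 change was -0.73.

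Immediate-early genes, which are induced together with Fos and Jun by fresh stimulation, lay on both sides of 0. Of 20 genes 9 had positive and 11 negative statistics, and 0 were called. An unadjusted p under 0.05 was found for 1, which was lower. That gene, Btg2, was at 0.196 TPM in Bub1 cKO and 1.32 TPM in Ctrl in the authors' deposited table, and is named after its values were seen. The smallest p-values among genes of at least 1 TPM belonged to Myc, at 7.69 TPM in Bub1 cKO and 4.88 TPM in Ctrl in the authors' deposited table, then Klf6, at 38.5 TPM in Bub1 cKO and 43.8 TPM in Ctrl, and Dusp2, at 1.55 TPM in Bub1 cKO and 3.60 TPM in Ctrl. These encode a growth factor-induced transcription factor, a zinc-finger factor and a phosphatase of MAP kinases.

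Osteoclast genes that c-Fos, Jdp2 or NFATc1 help to control had more positive than negative statistics. Of 18 genes, all averaging at least 1 TPM, 13 were positive and 5 negative, and 1 was called higher, beside 0.113% of all genes. An unadjusted p under 0.05 was found for 8, all higher, where 2.35% of all genes were higher at that level. The median log2 change was 0.35, beside -0.01 over all genes. Itgav, the alpha-V integrin, was the gene called, at 394 TPM in Bub1 cKO and 183 TPM in Ctrl in the authors' deposited table. Nfatc1 was at 73.3 TPM in Bub1 cKO and 48.7 TPM in Ctrl in the authors' deposited table, where its log2 change was 0.58 and its adjusted p 0.094, and the fusion gene Ocstamp at 22.1 TPM in Bub1 cKO and 11.1 TPM in Ctrl.

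Textbook AP-1 target genes outside that list were mostly positive as well. Of 18 genes 16 were analysed, 15 with positive statistics and 1 with a negative statistic. Of the 16, 12 averaged at least 1 TPM. By the authors' adjusted p 0 were called, and an unadjusted p under 0.05 was found for 8, all higher, where 2.35% of all genes were higher at that level. The median log2 change of the 16 was 0.39. Mmp12, the macrophage elastase, was at 34.3 TPM in Bub1 cKO and 4.89 TPM in Ctrl in the authors' deposited table, where its log2 change was 2.58 and its adjusted p 0.132, and the test's own log2 change was 1.64. Mmp14, a membrane-bound collagenase, was at 40.4 TPM in Bub1 cKO and 23.5 TPM in Ctrl in the authors' deposited table (adjusted p = 0.445). Hbegf, a growth factor of the EGF family, was at 2.97 TPM in Bub1 cKO and 0.263 TPM in Ctrl in the authors' deposited table, and reached a mean of 1 TPM through Bub1 cKO.

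**Figure D5:**
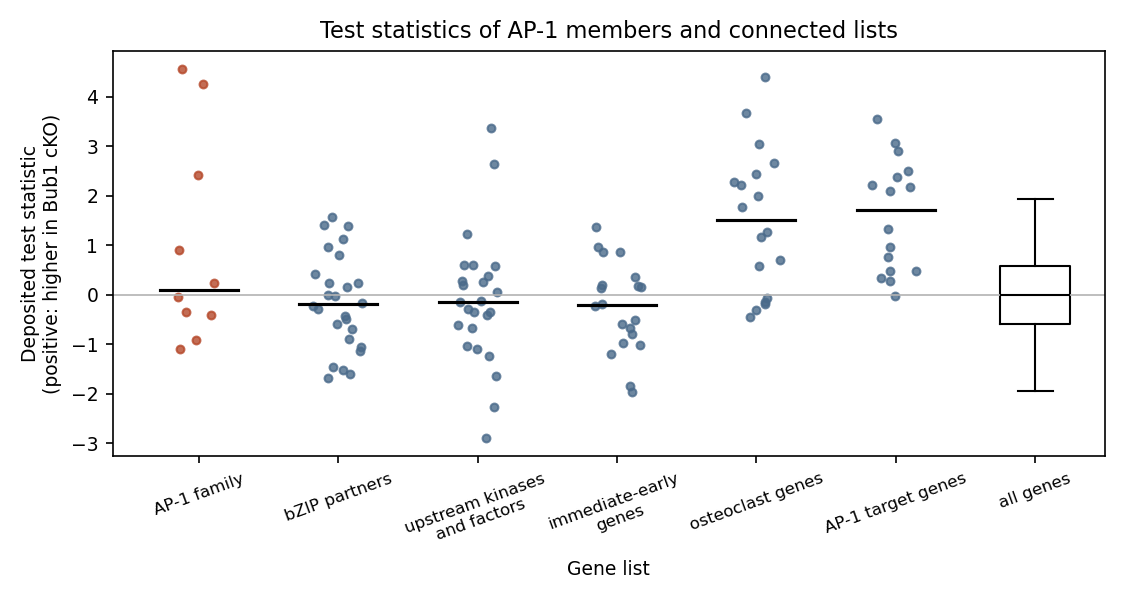
Deposited test statistic of each gene in the AP-1 family (red) and in 5 connected lists (blue), positive where higher in Bub1 cKO; horizontal position within a list is random, black bars are medians, and the box for all genes has whiskers around the central 95%. The points of the osteoclast and target lists lie mostly above 0, while those of the partners, the upstream genes and the immediate-early genes lie on both sides.

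Of the markers of other cells, 1 neutrophil and 2 erythroid genes were called higher in the same comparison, where 0.113% of all genes were: Cxcr2, a chemokine receptor, and the beta-globin genes Hbb-bs and Hbb-bt, near-identical copies between which reads may be split. The 7 neutrophil markers of 8 in the table summed to 228 TPM in Bub1 cKO and 94.8 TPM in Ctrl, and the 5 erythroid markers of 7 to 358 TPM in Bub1 cKO and 19.6 TPM in Ctrl, all 12 with a positive statistic and 7 with an unadjusted p under 0.05. The neutrophil marker Ltf, at 6.74 TPM in Bub1 cKO and 12.3 TPM in Ctrl in the authors' deposited table, was lower by level although its statistic was 0.22. In Ctrl, 2 of these neutrophil markers (Camp and Elane) and 1 erythroid marker (Alas2) were at 0 TPM. The 6 macrophage markers summed to 1219 TPM in Bub1 cKO and 2601 TPM in Ctrl, with 5 negative statistics and 1 gene called. That gene, Lyz2, which encodes lysozyme, was at 762 TPM in Bub1 cKO and 2141 TPM in Ctrl in the authors' deposited table, and without it the other 5 summed to 457 TPM in Bub1 cKO and 461 TPM in Ctrl. Cd68, a lysosomal protein of macrophages, was at 306 TPM in Bub1 cKO and 260 TPM in Ctrl in the authors' deposited table. The rest of these 5 were each lower by level. Adgre1 had 24.4 TPM in Bub1 cKO and 43.6 TPM in Ctrl, Csf1r 96.7 TPM in Bub1 cKO and 116 TPM in Ctrl. Mrc1 had 2.42 TPM in Bub1 cKO and 4.97 TPM in Ctrl, Itgam 27.1 TPM in Bub1 cKO and 36.3 TPM in Ctrl. At an unadjusted p under 0.05, 4 of the 6 were lower, Lyz2 included, and 1, Cd68, was higher. Over all genes, those below 1 TPM included, these shares were 2.46% and 2.35%. The 3 T cell markers summed to 0.349 TPM in Bub1 cKO and 1.11 TPM in Ctrl, and the 4 stromal markers to 2.41 TPM in Bub1 cKO and 1.85 TPM in Ctrl, with 0 of these 7 called or at an unadjusted p under 0.05. The part of these cells in the AP-1 values was not tested, and in bulk RNA more cells of a type and more RNA per cell cannot be told apart. The targeted gene Bub1 had 5.32 TPM in Bub1 cKO and 6.73 TPM in Ctrl in the authors' deposited table (adjusted p = 0.985), and since the sources used here do not name the deleted exons, this 3′ tag value does not check the labels.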

How the data were processed

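RNA of 6 libraries, 3 per genotype, (25 ng of input each) was sequenced after QuantSeq 3′ library preparation, per the labels. RaNA-seq, a web service, is named by the file header, and the sources used here do not name the aligner, genome build, counting or test. The expression columns of the authors' deposited table carry no unit. The authors' values are taken as TPM, since they sum to 999954 for Bub1 cKO and 999891 for Ctrl; CPM would sum alike. The deposited log2 changes can be recomputed from the group values with a pseudocount of 1, to within 0.00166. The deposited log2 change and the statistic had opposite signs in 12.3% of the genes averaging at least 1 TPM. Group values and the test can thus differ in direction. The deposited statistic and its standard error are scores from the authors' test, with the deposited p-value and adjusted p taken as they stand over 15982 genes. Sequencing depth is unknown, so precision is given by that standard error. With no values per library, the planned model per library was replaced by these p-values.

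Intervals, sums, counts and a repeat of the Benjamini-Hochberg step, tested on simulated data, were computed in Python 3.11.15 (numpy 2.4.6, pandas 2.3.3). Named genes were the 10 members, Bub1, and of each list the genes called and the 3 with the smallest p-values among those with a mean of at least 1 TPM; others are said to be named after their values were seen or serve as neighbours and markers. Members and lists were chosen with earlier results of these data known. Gene positions are from GENCODE vM21 (GRCm38), which holds 99.5% of the table's gene IDs without their version and 91.4% with it. Promoter windows are from RefSeq (GRCm38.p6).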

Additional observations from a re-analysis of the deposited data

How the results depend on the processing

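Adjusted again over the 10881 genes averaging at least 1 TPM or the 7159 with at least 5 TPM, or taken at an adjusted p under 0.1, the members called were Jdp2 and Fosl2, as in the authors' table; at an unadjusted p under 0.05 Jund joined them, which makes 3. Over all genes the count of 29 became 37, 38, 44 and 769 in these 4 settings. Each of the 4 lets more genes pass than the authors' call, so it says little that Jdp2 and Fosl2 stayed. The log2 changes were also taken with a pseudocount of 5 or 0.1, or as the test's own. All 30 such values of the 10 members stayed within 1 standard error of the deposited change. Where a standard error is large, this says little. The sign was kept by 29, and the exception is Fos, at 0.04 in the authors' deposited table and -0.01 by the test's own. Another pseudocount cannot alter a sign, so only the test's own values could have done so. The median log2 change of the members, 0.10, was 0.19 over members of at least 1 or at least 10 TPM. It was 0.09 after centring on genes of at least 10 TPM, and -0.07 without Jdp2 and Fosl2. These 2 have the largest log2 changes of the family, so leaving them out lowers the median by construction. No paired analysis was possible because the table holds 1 value per genotype, and for the same reason leaving out single libraries was not run. For Fosb, Fosl1 and Batf3, below 1 TPM, the standard errors from 2.16 to 3.92 limit what can be seen.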

Other observations

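Around the 8 members that were not called, 5 of the 86 other genes averaging at least 1 TPM that start within 250 kb had an unadjusted p under 0.05, or 5.81%, beside 4.81% of all genes, and 0 were called in the authors' deposited table. All genes include those below 1 TPM, so this background is not matched in level. Of the genes averaging at least 1 TPM near Junb, 3 of 20 had an unadjusted p under 0.05, 2 higher and 1 lower in Bub1 cKO, and 0 of 18 near Jund did. Near Atf3 this was 1 of 6, Flvcr1, a heme exporter at 15.8 TPM in Bub1 cKO and 5.76 TPM in Ctrl in the authors' deposited table (unadjusted p = 0.018, adjusted p = 0.841). Near Batf3 it was 1 of 8, again Flvcr1, which starts nearer to Batf3 than to Atf3. Near Fosl1 it was 1 of 16, Map3k11, a kinase of the JNK pathway at 1.57 TPM in Bub1 cKO and 4.48 TPM in Ctrl in the authors' deposited table (adjusted p = 0.448). Both were named after their values were seen.

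Among the zipper factors, Crem stood at 5.99 TPM in Bub1 cKO and 0.509 TPM in Ctrl in the authors' deposited table, where its log2 change was 2.21, its standard error 1.66 and its adjusted p 0.985. Crem encodes a modulator of the cAMP response element and was named after its values were seen. With such a standard error, the group values do not separate the genotypes.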
